A study of Homo sapiens with 6 samples.

Results

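Heat shock proteins and DNAJ co-chaperones are the protein-folding machinery of the cell, and their mRNA levels were compared here between AGS cells with and without FTO depletion. The members were the protein-coding genes whose symbol begins with HSPA, HSPB, HSPD, HSPE, HSPH, HSP90 or DNAJ. This rule took 76 of the 58174 genes in the expression table, which holds 19634 protein-coding genes. AGS is an established cell line from a human gastric adenocarcinoma. The study sequenced 3 libraries from AGS cells that received a negative control siRNA (si-NC) and 3 from AGS cells that received siRNA against FTO (si-FTO). FTO is an enzyme that removes N6-methyladenosine from RNA, and the comparison asks which transcripts differ in level when it is depleted. In the sample labels the si-NC libraries are also called wild type and the si-FTO libraries FTO-/-, whereas the sample titles and the study's methods describe siRNA. The group means cannot settle which of the labels describes the cells, and the groups are named by siRNA below.

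Proteins of the HSP70 family (HSPA genes) bind exposed stretches of unfolded proteins in a cycle driven by ATP. J proteins (DNAJ genes) deliver the client and stimulate the ATPase, and nucleotide exchange factors such as HSPH1 let the client go. HSP90 proteins finish the folding of kinases and receptors, HSPD1 and HSPE1 form the folding chamber of mitochondria, and small heat shock proteins (HSPB genes) hold unfolded proteins without ATP. Many of these genes are transcribed under heat shock factor 1 (HSF1) when unfolded proteins accumulate, and gastric carcinoma cells in culture express many of them without heat.

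The values are in TPM, a share of all transcripts corrected for transcript length, given as 1 mean per group. These means do not give the spread between libraries, so no test was run here, and the authors' own test was not used. TPM keeps no read number, so the depth behind each value is unknown. Each difference is a log2 ratio, the si-FTO mean plus a pseudocount of 1 over the si-NC mean plus 1, which understates the difference of genes with low levels. Plain folds are ratios of mean TPM without a pseudocount. A gene entered the comparison if either group mean reached 0.5 TPM, and ratios of 1 or more, or of -1 or less, on the log2 scale are called past 2-fold. In bulk RNA, fewer cells of a kind and less RNA per cell cannot be told apart.

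FTO itself stood at 33.1 TPM in si-NC against 7.27 in si-FTO. That is 4.56-fold lower in si-FTO, with a log2 ratio of -2.05, in the direction of the labels. FTO lies at chr16:53735604-54192424 of GRCh37, on the plus strand.

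The label of a gastric epithelial line was checked against marker genes, and the groups differed widely in them. Of 27 epithelial markers, 11 had at least 1 TPM in si-NC and 17 in si-FTO. Their summed mean TPM was 175 in si-NC, where DSP was the most abundant with 54.6 TPM, and 5673 in si-FTO, where KRT8 was the most abundant with 3139 TPM. KRT8, a keratin of simple epithelia, had 10.8 TPM in si-NC, and its partner KRT18 had 52.1 TPM in si-NC against 1851 in si-FTO. KRT7 was listed at 0 in si-NC and had 253 TPM in si-FTO. EPCAM, an adhesion protein of epithelia, was low in both groups, with 1.22 TPM in si-NC against 0.113 in si-FTO. E-cadherin (CDH1) had 3.67 TPM in si-NC against 0.685 in si-FTO, and KRT19 was listed at 0 in si-NC with 0.130 TPM in si-FTO.

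Of 18 gastrointestinal markers, 6 had at least 1 TPM in si-NC and 3 in si-FTO, with sums of 92.6 and 35.2 TPM. GATA4, the most abundant in si-NC with 36.96 TPM, and CDX2, with 18.1 TPM there, were listed at 0 in si-FTO, whereas MUC1 was the most abundant in si-FTO with 31.0 TPM. The gastric peptide TFF1, the intestinal TFF3, VIL1 and CDX1 were listed at 0 in both groups. Markers of other lineages differed as well. The 8 neuronal markers summed to 438 TPM in si-NC, 303 TPM of it UCHL1, and to 13.96 TPM in si-FTO, where NEFH was the most abundant with 12.97 TPM and NEFL, NEFM, ELAVL4 and STMN2 were listed at 0. The 9 fibroblast markers summed to 17.0 and 46.8 TPM, with COL1A1 the most abundant in both groups, at 10.3 TPM in si-NC against 36.4 in si-FTO. Of the fibroblast markers, 7 were compared, 3 at least 2-fold higher and 2 at least 2-fold lower in si-FTO. These shares were 42.9% and 28.6%, beside 11.4% and 17.0% of all genes. PDGFRB had 0.370 TPM in si-NC against 5.34 in si-FTO, and FAP was listed at 0 in si-NC with 1.23 TPM in si-FTO. COL3A1 and PDGFRA were lower, with log2 ratios of -1.22 and -1.02, and within 2-fold under quantile normalization. Of those past 2-fold, all but COL1A1 reached the minimum only through the group where they were higher, so nothing is read from these counts. Of leukocyte markers, CD68 had 1.49 TPM in si-NC against 6.42 in si-FTO, and PTPRC was listed at 0 in both. Of 3 endothelial markers found among 4 sought, CDH5 had 0.00827 TPM in si-NC against 40.9 in si-FTO, while KDR and VWF were under 0.5 TPM in both. The libraries under the 2 labels thus differ in lineage markers beyond FTO, and the part of that difference in each result below was not tested.

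HSPA1A and HSPA1B, genes of stress-inducible HSP70, had far lower levels in si-FTO, and the small heat shock protein HSPB1 had a far higher one. The most abundant members, HSPA8 and HSP90AB1, and most J proteins lay within 2-fold. Of the 76 members, 69 reached the minimum and were compared, and 7 did not. At least 2-fold higher in si-FTO were 8 members (11.6%), where 11.4% of all 20493 genes compared and 12.0% of the 14176 protein-coding genes compared were. At least 2-fold lower were 7 members (10.1%), where the share was 17.0% of all genes and 19.1% of protein-coding genes. The other 54 members lay within 2-fold. On the scale used, the share of members past 2-fold was near the background on the higher side and under it on the lower side. These counts include HSPB7, HSPB3 and DNAJC15, which reached the minimum through si-FTO only, and DNAJC28, which reached it through si-NC only. Nothing more is read from these shares. The median log2 ratio of the members was -0.12, beside -0.20 for all genes and -0.22 for protein-coding genes, and 37 of the 69 members lay above the median of all genes. That order turned under quantile normalization, with -0.09 for the members and -0.03 for all genes, and without a minimum, with -0.12 for the members and 0 for all genes.

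The counts depended on the scale as well. Median-ratio scaling of the groups, which removes a shift of -0.21 between them, gave 10 members higher and 4 lower (14.5% and 5.80%), beside 13.7% and 14.4% of all genes, and a member median of 0.03. Quantile normalization gave 8 members higher and 5 lower of 68 compared (11.8% and 7.35%), beside 13.6% and 14.1% of all genes. With a pseudocount of 0.1, 8 members were higher and 8 lower (11.6% each), beside 16.01% and 25.1% of all genes, so that the higher share then lay under the background. Under median-ratio scaling or quantile normalization, 14 of the 69 members crossed 0, and 0 of these 14 were past 2-fold.

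**Figure D1:**
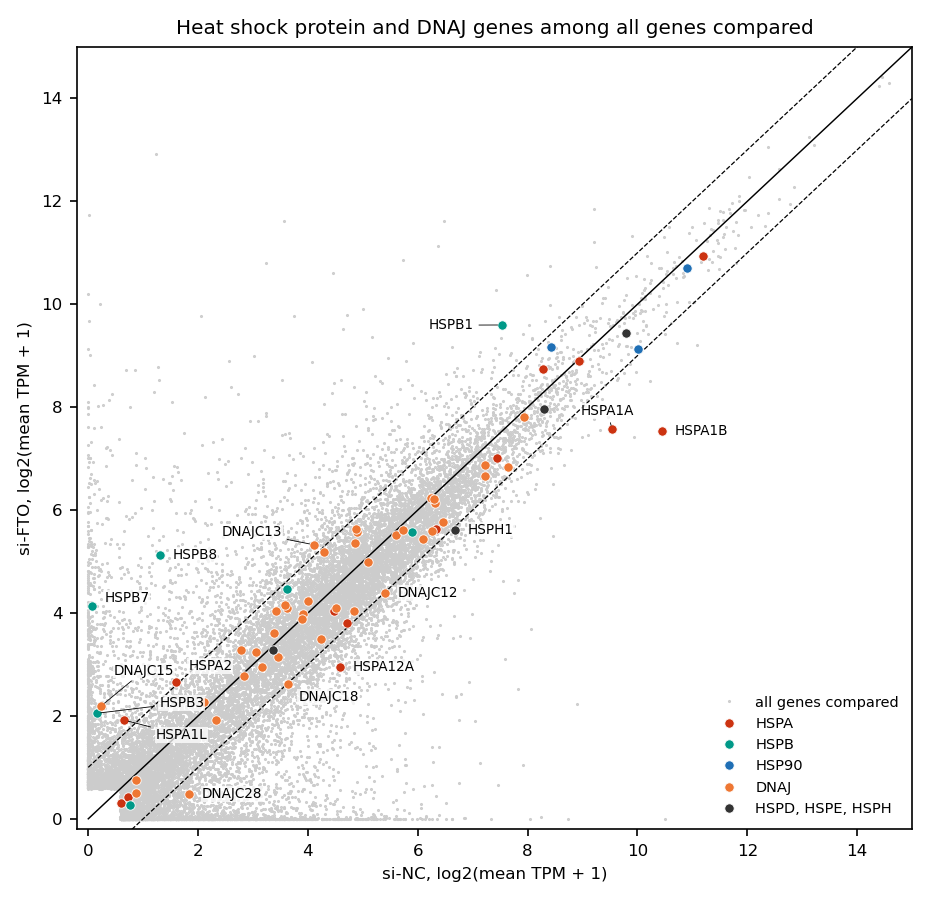
Mean TPM of each gene compared, on the log2(mean TPM + 1) scale, in si-NC (horizontal) and si-FTO (vertical). Grey points are all 20493 genes compared, coloured points are the 69 members compared, by family, and most lie between the dashed 2-fold lines around the solid line of equal levels, with HSPA1A and HSPA1B far below and HSPB1, HSPB8 and HSPB7 far above.

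Members below the minimum were DNAJB7, DNAJB8, DNAJC5B, DNAJC5G, HSPB2, HSPB6 and the readthrough gene HSPB2-C11orf52. Of these, HSPB2 and HSPB2-C11orf52 were listed at 0 in si-NC, and DNAJB8, DNAJC5B and DNAJC5G were listed at 0 in si-FTO. No member with at least 0.5 TPM in either group was listed at 0 in the other. All members together summed to 12163 TPM in si-NC, 1.22% of the total, and to 9635 TPM in si-FTO, 0.964% of the total. Most of that gap came from HSPA1A and HSPA1B, which summed to 2135 TPM in si-NC against 375 in si-FTO. The remaining 74 members summed to 10028 TPM and 9261 TPM, a ratio of 0.924, a direction that turned under median-ratio scaling, where the si-FTO sum was 1.07 times that of si-NC.

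**Figure D2:**
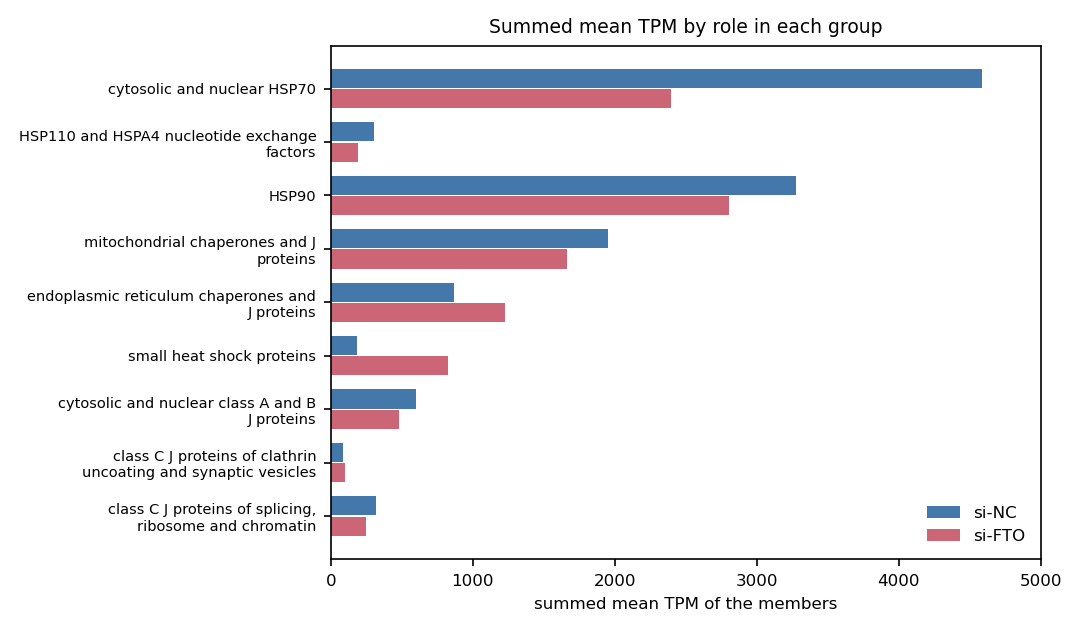
Summed mean TPM of the members of each fixed role (horizontal axis, linear, from 0) in si-NC (blue) and si-FTO (red), 1 value per group, with HSP90B1 counted under HSP90 and under the endoplasmic reticulum. The bar of cytosolic and nuclear HSP70 is 4587 TPM in si-NC against 2396 in si-FTO, and the bar of the small heat shock proteins is 186 TPM and 828 TPM.

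Of the fixed roles, the cytosolic and nuclear HSP70 genes held the largest difference in summed TPM. As a ratio of sums, si-FTO over si-NC, the small heat shock proteins differed more, with 4.44 against 0.522 here. Of the 9 genes in the HSP70 role, all compared, 2 were at least 2-fold higher and 3 at least 2-fold lower. These shares were 22.2% and 33.3%, beside 11.4% and 17.0% of all genes, and the median log2 ratio was -0.30. Among the 3 lower genes, HSPA1A and HSPA1B cannot be read fully apart, as given below, so nothing is read from these shares. HSPA1B, the gene of a stress-inducible HSP70, had 1393 TPM in si-NC against 186 in si-FTO, which is 7.49-fold lower with a log2 ratio of -2.90. HSPA1A, its neighbour that encodes nearly the same protein, had 742 TPM in si-NC against 189 in si-FTO, which is 3.94-fold lower with a log2 ratio of -1.97. Ranked by the difference in mean TPM over all 58174 genes, HSPA1B had the 15th largest loss and HSPA1A the 38th. The summed level of both was 5.70-fold lower in si-FTO. In si-NC HSPA1B stood above HSPA1A per length, and in si-FTO the levels of both were alike.

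These genes cannot be read fully apart. Their annotated coding sequences in GRCh37 have 1923 bases each and match at 1919 aligned positions, an identity of 99.8%. Of all windows of 50 bases in annotated HSPA1A transcripts, 75.1% also occur in transcripts of another gene, and for HSPA1B the share is 73.6%. Reads in these windows could have been split between the genes, so the separate values are uncertain and the sum is the safer measure. HSPA1A lies at chr6:31783320-31785723 and HSPA1B at chr6:31795515-31798031 of GRCh37, both on the plus strand, with starts 12195 bases apart.

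Because both genes were lower together, the 250 bases before the start of each are shown, from the RefSeq promoter table of GRCh38.p14. The HSPA1A stretch is chr6:31815293-31815542 and the HSPA1B stretch is chr6:31827488-31827737, both on the plus strand. Capitals mark the match to the 2-unit heat shock element GAANNTTC, the inverted pair of the GAA units that heat shock factors bind. The stretches match at 235 of 251 aligned positions, an identity of 93.6%, and hold the same 8 letters of the element, 106 and 105 bases before the start.
HSPA1A: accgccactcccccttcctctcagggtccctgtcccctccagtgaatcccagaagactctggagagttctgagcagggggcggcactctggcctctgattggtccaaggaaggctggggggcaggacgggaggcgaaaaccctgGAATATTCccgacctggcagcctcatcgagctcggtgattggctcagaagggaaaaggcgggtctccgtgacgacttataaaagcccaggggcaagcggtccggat
HSPA1B: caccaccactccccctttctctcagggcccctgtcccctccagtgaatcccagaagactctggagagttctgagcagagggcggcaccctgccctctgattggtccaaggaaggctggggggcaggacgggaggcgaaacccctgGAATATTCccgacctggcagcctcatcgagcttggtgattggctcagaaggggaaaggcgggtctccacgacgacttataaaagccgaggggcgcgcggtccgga

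HSPA1L, an HSP70 gene best known from testis, lies next to HSPA1A on the opposite strand, with annotated starts 260 bases apart in GRCh37. It had 0.573 TPM in si-NC against 2.78 in si-FTO, a log2 ratio of 1.26, opposite to its neighbours and at a far lower level. The element match in capitals above is the same stretch, chr6:31815437-31815444, in the upstream windows of HSPA1A and HSPA1L. HSPA2, another HSP70 gene best known from testis, had 2.01 TPM in si-NC against 5.28 in si-FTO, a log2 ratio of 1.06. HSPA12A, a distant relative of the HSP70 family, had 22.9 TPM in si-NC against 6.76 in si-FTO, a log2 ratio of -1.62. HSPA8, the constitutive HSP70 and the most abundant member of all, had 2346 TPM in si-NC against 1957 in si-FTO, with a log2 ratio of -0.26 that lay close to the median of all genes. HSPA6, an HSP70 gene that is silent without strong heat shock, was low in both groups, with 0.658 TPM in si-NC against 0.348 in si-FTO. HSPA14, which works with a J protein at the ribosome, had 79.3 TPM and 48.9 TPM, and HSPA12B had 0.519 TPM and 0.241 TPM, both within 2-fold on the log2 scale used.

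The HSP110 and HSPA4 genes encode nucleotide exchange factors of HSP70, and all 3 were lower in si-FTO under each scaling tried. As deposited, 12279 of all 20493 genes compared lay below 0 as well. The 3 genes had a median log2 ratio of -0.90 and summed to 301 TPM in si-NC against 189.7 in si-FTO. HSPH1, which also takes part in pulling proteins out of aggregates, had 102 TPM in si-NC against 48.2 in si-FTO, a log2 ratio of -1.07 that was -0.86 under median-ratio scaling. HSPA4L, the member nearest to the 2-fold threshold among those within it on the lower side, had 25.1 TPM in si-NC against 13.0 in si-FTO, a log2 ratio of -0.90. HSPA4 had 174 TPM and 129 TPM, a log2 ratio of -0.43. HSPBP1, an exchange factor of another fold, had 58.1 TPM in si-NC against 46.8 in si-FTO, a log2 ratio of -0.31. HSPBAP1, a binding partner of HSPB1 and not a chaperone, had 11.3 TPM in si-NC against 21.1 in si-FTO, a log2 ratio of 0.84 that reached 1.05 under median-ratio scaling.

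None of the 3 HSP90 genes passed 2-fold, and they differed in direction. Of all 20493 genes compared, 14661 lay within 2-fold as well. HSP90AA1, the more heat-inducible cytosolic form, had 1034 TPM in si-NC against 560.4 in si-FTO, a log2 ratio of -0.88. HSP90AB1, the constitutive cytosolic form, had 1902 TPM in si-NC against 1670.1 in si-FTO, a log2 ratio of -0.19 that became 0.02 under median-ratio scaling. HSP90B1, the form of the endoplasmic reticulum, had 343 TPM in si-NC against 577 in si-FTO, a log2 ratio of 0.75.

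**Figure D3:**
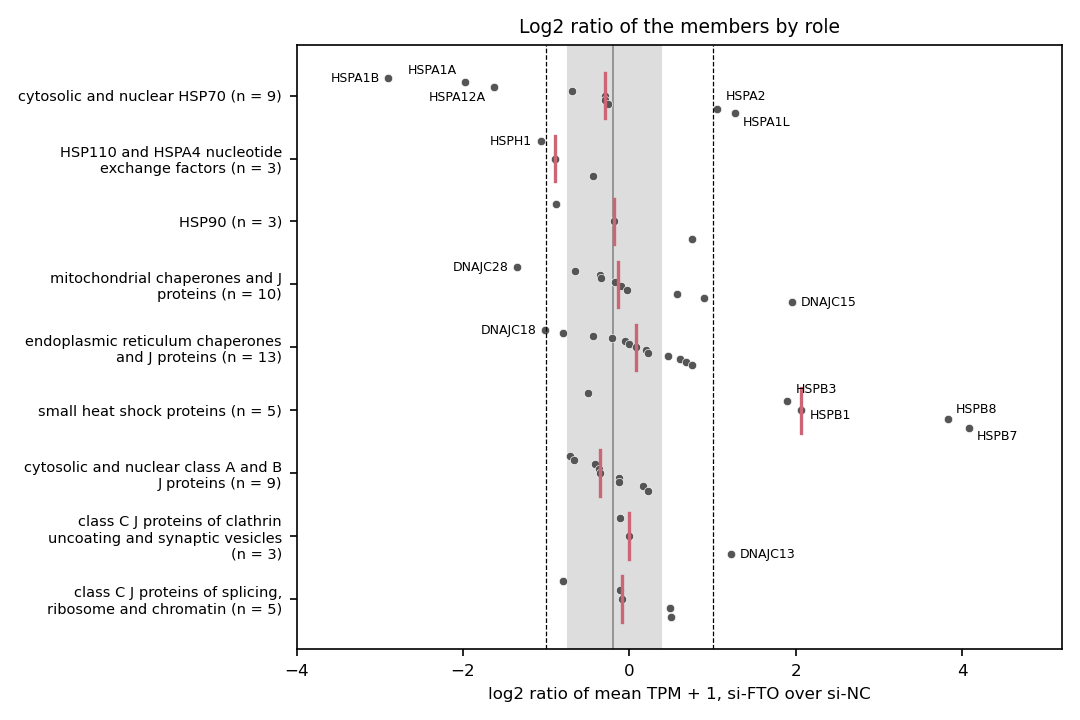
Log2 ratio of mean TPM + 1, si-FTO over si-NC (horizontal), of each member compared, by fixed role (vertical), where the HSP110 and HSPA4 genes have a median of -0.90. Nothing is read from the median of the small heat shock proteins, since HSPB7 and HSPB3 reached the minimum through si-FTO only. Each grey point is a gene, red bars are role medians, the shaded band spans the quartiles of all genes compared, from -0.74 to 0.38, around their median of -0.20, and dashed lines mark 2-fold.

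The genes of the endoplasmic reticulum stood higher as a sum. All 13 genes of this role were compared, with a median log2 ratio of 0.08. Of these, 0 were at least 2-fold higher and 1 was at least 2-fold lower (0% and 7.69%, beside 11.4% and 17.0% of all genes). Their summed level was 870.3 TPM in si-NC against 1224 in si-FTO, a ratio of 1.41, and HSP90B1 and HSPA5 made up most of it. HSPA5 (BiP), the HSP70 of this compartment, had 309 TPM in si-NC against 427 in si-FTO, a log2 ratio of 0.46. Its J protein partner DNAJB11 had 74.2 TPM in si-NC against 74.1 in si-FTO, a log2 ratio of 0.00. DNAJC3, which restrains an eIF2 kinase and assists HSPA5, had 9.72 TPM and 15.4 TPM, and DNAJB12, a membrane J protein of protein disposal, had 28.8 TPM and 46.9 TPM. On the lower side, DNAJC1 had 27.6 TPM in si-NC against 15.5 in si-FTO, and HSPA13 had 21.3 TPM and 15.5 TPM. Of the 13 log2 ratios, 7 were above 0 and 6 below as deposited, beside 8214 above and 12279 below of all 20493 genes compared. DNAJC18, a membrane J protein, was the gene past 2-fold, with 11.4 TPM in si-NC against 5.12 in si-FTO. Its log2 ratio was -1.02 as deposited, -0.83 under quantile normalization and -0.84 under median-ratio scaling.

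Among the 10 mitochondrial chaperones and J proteins, 1 was at least 2-fold higher and 1 at least 2-fold lower (10% each, beside 11.4% and 17.0% of all genes). Each of these reached the minimum of 0.5 TPM only through the group where it was higher, so nothing is read from that count. The median log2 ratio was -0.14 and became 0.07 under median-ratio scaling. HSPD1, the mitochondrial HSP60, had 889 TPM in si-NC against 698 in si-FTO, and its lid HSPE1 had 314 TPM and 248 TPM. Their log2 ratios were -0.35 and -0.34, so both parts of the folding chamber lay close together. HSPA9, the mitochondrial HSP70, had 489.9 TPM in si-NC against 479 in si-FTO, a log2 ratio of -0.03, and DNAJA3, its J protein, had 79.0 TPM and 69.8 TPM. DNAJC11, which is tied to the folds of the inner membrane, had 78.0 TPM in si-NC against 72.8 in si-FTO. DNAJC15, a J protein of the inner membrane, was low in both groups, with 0.180 TPM in si-NC against 3.58 in si-FTO, a log2 ratio of 1.96. DNAJC28 had 2.58 TPM in si-NC against 0.405 in si-FTO, a log2 ratio of -1.35. DNAJC4 was the member nearest to the threshold from within on the higher side, with 18.7 TPM in si-NC against 35.5 in si-FTO, a log2 ratio of 0.89 that reached 1.10 under median-ratio scaling.

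The small heat shock proteins differed mainly through HSPB1 and HSPB8. Of 7 genes, 5 were compared, 4 of these were at least 2-fold higher and 0 at least 2-fold lower on the log2 scale used, beside 11.4% and 17.0% of all genes. HSPB7 and HSPB3, which count among the 4, reached the minimum through si-FTO only, so nothing is read from that count or from the median log2 ratio of 2.07. The 2 others, HSPB2 and HSPB6, stayed under the minimum. Their summed level was 186 TPM in si-NC against 828 in si-FTO, and most of it was HSPB1.

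HSPB1 (HSP27), which holds unfolded proteins and binds actin filaments, had 184 TPM in si-NC against 774 in si-FTO, 4.21-fold higher with a log2 ratio of 2.07. By the difference in mean TPM it had the 40th largest gain of all genes. HSPB8, which works with BAG3 in the disposal of aggregates by autophagy, had 1.46 TPM in si-NC against 34.0 in si-FTO, 23.2-fold higher with a log2 ratio of 3.83. HSPB7, best known from heart muscle, had 0.0447 TPM in si-NC against 16.6 in si-FTO, a log2 ratio of 4.08. HSPB3, also best known from muscle, had 0.112 TPM in si-NC against 3.14 in si-FTO, with a log2 ratio of 1.90. The si-NC levels of HSPB7 and HSPB3 are so low that no plain fold is given. HSPB9, best known from testis, had 0.696 TPM in si-NC against 0.205 in si-FTO, a plain difference of 3.40-fold lower. It lay within 2-fold, with a log2 ratio of -0.49, because of the pseudocount of 1. Of the 50-base windows of the HSPB1 transcript counted, 12.9% also occur in another gene, and for HSPB8, HSPB7 and HSPB3 the share is 0.

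The stretches before HSPB1 and HSPB8 are shown because these genes were higher while also holding a 2-unit heat shock element, as HSPA1A and HSPA1B do. They are chr7:76302423-76302672 for HSPB1 and chr12:119178681-119178930 for HSPB8 (GRCh38.p14, plus strand), with the match in capitals. The letters of the element of HSPB8 are the same as those of HSPA1A and HSPA1B.
HSPB1: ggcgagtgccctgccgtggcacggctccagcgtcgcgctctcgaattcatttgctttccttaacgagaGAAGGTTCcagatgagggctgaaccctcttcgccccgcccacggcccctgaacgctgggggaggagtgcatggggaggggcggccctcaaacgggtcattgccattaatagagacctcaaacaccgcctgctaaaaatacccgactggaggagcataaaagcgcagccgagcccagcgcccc
HSPB8: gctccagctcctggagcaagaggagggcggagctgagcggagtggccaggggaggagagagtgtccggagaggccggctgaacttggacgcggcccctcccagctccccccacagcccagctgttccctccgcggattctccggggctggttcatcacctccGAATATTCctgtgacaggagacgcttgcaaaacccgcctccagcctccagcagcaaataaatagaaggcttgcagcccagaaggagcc

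**Figure D4:**
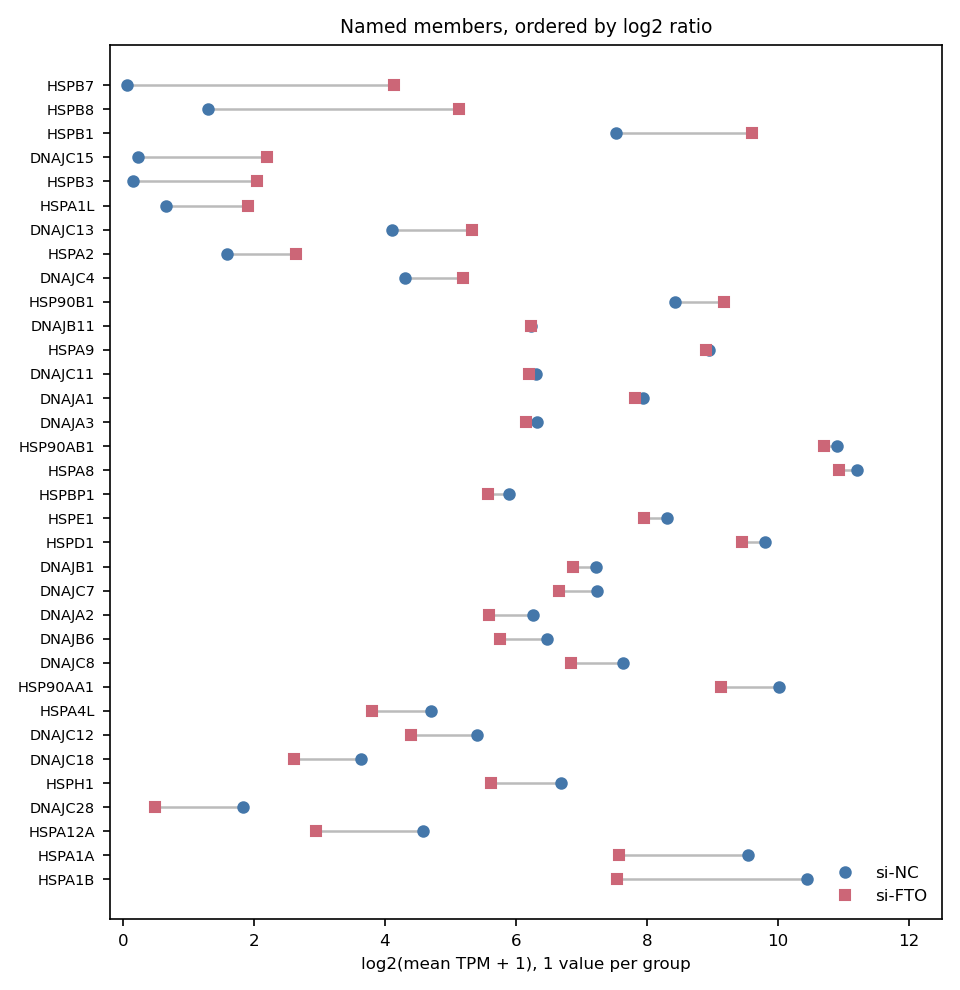
Level of each member named by rule on the log2(mean TPM + 1) scale (horizontal), si-NC as blue circles and si-FTO as red squares, 1 mean per group, ordered from the highest log2 ratio (top) to the lowest (bottom). HSPB7, HSPB8 and HSPB1 stand at the top, and HSPA1A and HSPA1B, with log2 ratios of -1.97 and -2.90, at the bottom.

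The class A and B J proteins of the cytosol and nucleus that were compared lay within 2-fold. These classes held 11 genes, of which 9 were compared and 0 were past 2-fold, beside 11.4% of all genes higher and 17.0% lower. The median log2 ratio was -0.35. DNAJA1, a main partner of HSPA8, had 244 TPM in si-NC against 224 in si-FTO, and DNAJA2 had 75.5 TPM and 47.3 TPM. DNAJB1, the heat-inducible J protein, had 148 TPM in si-NC against 116 in si-FTO, a log2 ratio of -0.35. DNAJB6, which keeps polyglutamine proteins from aggregating, had 87.5 TPM in si-NC against 53.2 in si-FTO, a log2 ratio of -0.71.

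Class C J proteins carry out more particular tasks. Of the 5 genes of clathrin uncoating and synaptic vesicles, 3 were compared and 1 was at least 2-fold higher (33.3%, beside 11.4% of all genes). Their median log2 ratio was -0.01 and became 0.11 under quantile normalization and 0.19 under median-ratio scaling. The gene past 2-fold was DNAJC13, which acts in sorting at endosomes, with 16.2 TPM in si-NC against 39.1 in si-FTO, with a log2 ratio of 1.23. The 5 genes of splicing, ribosome and chromatin were all within 2-fold, as were 14661 of all 20493 genes compared. The median log2 ratio of the 5 was -0.08 and became 0.12 under median-ratio scaling. The most abundant of the 5, the spliceosome protein DNAJC8, had 198 TPM in si-NC against 114 in si-FTO, a log2 ratio of -0.79. DNAJC7, which links HSP70 to HSP90, had 149 TPM in si-NC against 99.6 in si-FTO. DNAJC12, a co-chaperone of the aromatic amino acid hydroxylases, had 41.4 TPM in si-NC against 20.0 in si-FTO. Its log2 ratio of -1.01 was -0.95 under quantile normalization and -0.81 under median-ratio scaling. Over all 45 DNAJ genes, 41 were compared, 2 were at least 2-fold higher and 3 at least 2-fold lower (4.88% and 7.32%, under the 11.4% and 17.0% of all genes), with a median log2 ratio of -0.11 that became 0.10 under median-ratio scaling.

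Heat shock elements were searched in the 250 bases before each start in the RefSeq table, which held 89 windows of 68 members. The 2-unit element GAANNTTC reads the same on both strands and occurred in 16 of the 89 windows (18.0%), beside 5.78% of all 35116 windows. The 3-unit element, GAANNTTCNNGAA or its reverse complement TTCNNGAANNTTC, contains the shorter one and was found in 6 windows (6.74%), beside 0.441% of all windows. Of the 8 members at least 2-fold higher, 3 had the 2-unit element, namely HSPA1L, HSPB1 and HSPB8. Of the 7 members at least 2-fold lower, 2 had it, HSPA1A and HSPA1B. Among the 54 members within 2-fold, 49 had a window and 9 of these had the element. Members with the element thus lay on both sides of the threshold and within it. The TATA box letters TATAAA, searched on both strands, stood in 12 of the 89 windows (13.5%), beside 10.7% of all windows. A match is a description of letters, not a site or a cause.

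**Figure D5:**
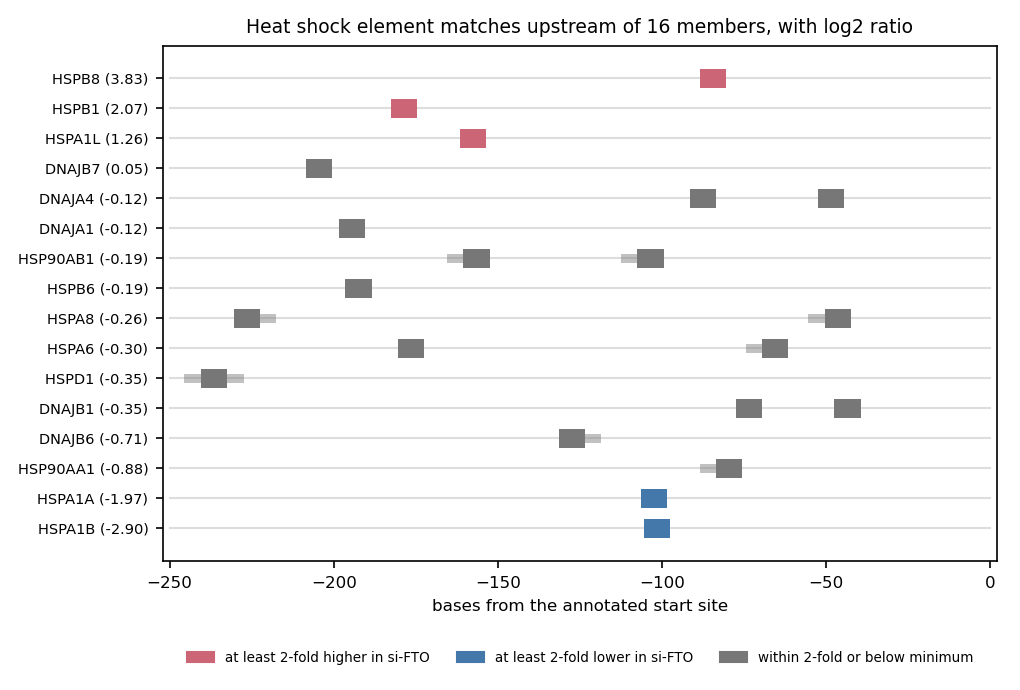
Position of matches to the heat shock elements in the 250 bases before the annotated start (horizontal, in bases) of the 16 members that hold any, ordered by log2 ratio, which stands in parentheses. Tall bars are 2-unit matches and short pale bars 3-unit matches, red for members at least 2-fold higher in si-FTO, blue for those at least 2-fold lower and grey for the others, which hold all the 3-unit matches.

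The 6 members with the 3-unit element were HSPA8, HSP90AB1, HSP90AA1, HSPD1, HSPA6 and DNAJB6, all within 2-fold. So were 54 of the 69 members compared and 14661 of all 20493 genes compared, and nothing is read from this count. For the 4 most abundant members with the 3-unit element, 1 match each is shown for comparison with the 2-unit matches above. The matches are in capitals with 10 bases on either side, on the strand of the gene. The printed stretches lie in GRCh38.p14 at chr11:123062169-123062201 for HSPA8 (minus strand), chr6:44247821-44247853 for HSP90AB1 (plus strand), chr14:102087110-102087142 for HSP90AA1 (minus strand) and chr2:197500058-197500090 for HSPD1 (minus strand). HSPA8 and HSP90AB1 each hold another 3-unit match farther from the start, at chr11:123062354-123062366 and chr6:44247778-44247790. The HSPD1 stretch also holds an overlapping match in the other orientation, not set apart by capitals.
HSPA8: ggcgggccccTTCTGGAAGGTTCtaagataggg
HSP90AB1: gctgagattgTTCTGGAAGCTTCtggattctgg
HSP90AA1: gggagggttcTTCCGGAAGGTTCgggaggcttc
HSPD1: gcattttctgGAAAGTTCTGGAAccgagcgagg

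The endoplasmic reticulum stress element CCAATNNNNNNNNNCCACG was searched on both strands in the same windows. It was found in 2 of the 89 windows (2.25%), those of HSPA5 and HSP90B1, beside 0.0740% of all windows. HSPA5 and HSP90B1 are also the most abundant members of their compartment, and both were higher in si-FTO within 2-fold. Their matches are shown in capitals, with HSPA5 at chr9:125241381-125241419 (minus strand) and the match of HSP90B1 farther from its start at chr12:103930206-103930244 (plus strand), both in GRCh38.p14.
HSPA5: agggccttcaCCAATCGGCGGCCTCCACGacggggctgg
HSP90B1: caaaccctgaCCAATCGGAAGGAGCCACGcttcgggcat

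Genes that act with the members were described from fixed lists. HSF1, the main heat shock factor, had 70.2 TPM in si-NC against 77.0 in si-FTO, a log2 ratio of 0.13. HSF2, a related factor that binds the same elements, had 28.2 TPM in si-NC against 9.45 in si-FTO, a log2 ratio of -1.48. It was the gene past 2-fold among the 5 compared of 6 heat shock factors and their binding proteins. That is 20%, near the 17.0% of all genes that were at least 2-fold lower. Of 22 heat-inducible targets of HSF1, 3 were at least 2-fold higher and 3 at least 2-fold lower (13.6% each), near the 11.4% and 17.0% of all genes, or 2 lower under median-ratio scaling, where HSPH1 was within 2-fold, with a median log2 ratio of -0.34. The 3 lower genes were HSPA1A, HSPA1B and HSPH1, and the 3 higher genes were HSPB1, CRYAB and SERPINH1. SERPINH1, the collagen chaperone, had 48.9 TPM in si-NC against 107 in si-FTO, and CRYAB, a crystallin of the small heat shock family, had 0.411 TPM and 4.41 TPM and reached the minimum through si-FTO only. Without the members, the 9 remaining targets had a median of -0.09, and the most abundant of them, the polyubiquitin gene UBB, had 916 TPM in si-NC against 862 in si-FTO.

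Of 27 co-chaperones of HSP70 and HSP90 without the family prefixes, 3 were at least 2-fold higher and 5 at least 2-fold lower (4 under quantile normalization and 3 under median-ratio scaling), with a median log2 ratio of -0.38. These shares, 11.1% and 18.5%, lay near those of all genes. BAG1, an exchange factor of HSP70, had 24.5 TPM in si-NC against 231 in si-FTO, a log2 ratio of 3.18. BAG2, an inhibitor of the ubiquitin ligase STUB1, had a log2 ratio of 1.34, and SIL1, the exchange factor of HSPA5, one of 1.15. ST13, which slows the HSP70 cycle, had 339 TPM in si-NC against 138 in si-FTO, with a log2 ratio of -1.29. The others past 2-fold on the lower side were the HSP90 immunophilin FKBP5 (-1.32), the mitochondrial exchange factor GRPEL2 (-1.22), the HSP90-bound phosphatase PPP5C (-1.12) and BAG4 (-1.09). STIP1, which joins HSP70 to HSP90, was the most abundant of the list, with 579 TPM in si-NC against 443 in si-FTO. The 4 J proteins without the prefix were led by GAK, with 53.9 TPM in si-NC against 45.4 in si-FTO. All 4 were within 2-fold, as were 14661 of all 20493 genes compared, and the median of the 4 was -0.30. Of 6 relatives of HSP90, HSP60 and the small heat shock proteins, 5 were compared. Of these 1, CRYAB, was at least 2-fold higher (20%, beside 11.4% of all genes), with the limit given above. The mitochondrial HSP90 TRAP1, the most abundant of these, had 391 TPM in si-NC against 283 in si-FTO.

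The 15 subunits of the cytosolic chaperonin TRiC and of prefoldin, which fold actin and tubulin, had a median log2 ratio of -0.43. Of these, 0 were at least 2-fold higher and 1 at least 2-fold lower (0% and 6.67%, beside 11.4% and 17.0% of all genes). The lower count was 2 under quantile normalization and 0 under median-ratio scaling. The subunit past 2-fold was CCT4, with 650.2 TPM in si-NC against 284 in si-FTO. CCT3, the most abundant in si-NC, had 1096 TPM there against 813 in si-FTO. CCT5, the most abundant subunit in the si-FTO group, had 679.6 TPM in si-NC against 1115 in si-FTO. As deposited, it was the only TRiC subunit of the list that was higher in si-FTO. Of all 15 subunits, 12 had a log2 ratio below 0 and 3 above, beside 12279 below and 8214 above of all 20493 genes compared. Among 13 folding enzymes and lectins of the endoplasmic reticulum, 0 were at least 2-fold higher and 1 at least 2-fold lower (0% and 7.69%, beside 11.4% and 17.0% of all genes). The lower gene was the oxidase ERO1B, with 9.65 TPM in si-NC against 2.80 in si-FTO. Their median was -0.12 and became 0.09 under median-ratio scaling, and the most abundant, the lectin CALR, had 659.9 TPM in si-NC against 1106 in si-FTO. Their summed level was 2514 TPM in si-NC against 3132 in si-FTO, higher in si-FTO as for HSPA5 and HSP90B1. A list of 8 genes held mitochondrial proteases and a disaggregase, and 0 of these were past 2-fold, beside 11.4% of all genes higher and 17.0% lower. The median of the 8 was 0.16, and the most abundant were CLPP with 165 TPM in si-NC and LONP1 with 189 TPM in si-FTO.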

How the data were processed

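The data are RNA sequencing of 3 si-NC and 3 si-FTO libraries of AGS cells. The authors mapped reads to hg19 with Bowtie and quantified them with RSEM, as the study's methods state, while the submitters' processing notes name HISAT2 and hg19. The annotation is not given in the sources used here. The deposited expression table gives the authors' TPM for 58174 genes, 1 mean for each group, together with a fold change, a p-value and a q-value of their own comparison, which were not used. A second deposited table of 7986 genes was not used. A value of 0.0001 was read as 0. Columns of single libraries used numbered 0, so the values used give neither depth nor error.

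Symbols matched 55726 of the 58174 identifiers. Gene types, coordinates, coding sequences and 50-base windows come from GENCODE v44 lifted to GRCh37, and upstream sequences from the RefSeq table of GRCh38.p14. Coordinates were never converted between builds.

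Log2 ratios used a pseudocount of 1 and a minimum mean TPM of 0.5. The members and lists were chosen with earlier results of these data known. Members named are those past 2-fold, the 3 most abundant of each of HSPA, HSPB, HSP90, DNAJA, DNAJB and DNAJC, HSPD1, HSPE1, HSPH1 and the nearest to the threshold on each side. From the lists, genes past 2-fold, the most abundant, HSF1 and HSF2 are named. HSPA4, HSPA5, HSPA6, HSPA12B, HSPA13, HSPA14, HSPB9, HSPBAP1, DNAJB12, DNAJC1, DNAJC3, CCT5 and single marker genes were named after their values were seen. Alternatives were another pseudocount, minimum and threshold, quantile normalization, median-ratio scaling, 0.0001 kept, readthrough genes and binding partners left out and, chosen after seeing the data, HSPA1A and HSPA1B summed and both scalings applied to each role and list. Python 3.11.15, numpy 2.4.6, pandas 2.3.3, scipy 1.17.1, Biopython 1.88 and matplotlib 3.10.9 were used, and the calculation of ratios was tested on simulated data.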

Additional observations from a re-analysis of the deposited data

How the results depend on the processing

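No paired analysis was possible because the values are group means, and leaving out each library and the replicate block were not run for the same reason. The means used give neither the depth nor the spread between libraries, which limits every value. FTO stayed past 2-fold lower, with log2 ratios from -2.17 to -1.86. The median log2 ratio of the members was -0.12 as reported, -0.18 with a pseudocount of 0.1, -0.0876 under quantile normalization and 0.0330 under median-ratio scaling, where the sign turned because a shift of -0.21 was removed; the cause of the other moves was not tested. A minimum of 5 TPM left 5 members higher, since fewer genes entered (8.62% of members, 13.3% of all genes). A 1.5-fold threshold gave 14 higher (20.3%, 18.8% of all genes) and 16 lower (23.2%, 31.2% of all genes), and median-ratio scaling 4 lower (5.80%, 14.4% of all genes). Of 86 values of members past 2-fold under the alternatives run, 81 stayed past it in the same direction and 5 did not, all of HSPH1, DNAJC18 and DNAJC12 under the scalings. The other 12 of the 15 members stayed past 2-fold in every alternative run for them. With HSPA1A and HSPA1B summed as 1 gene, which was chosen after seeing the data, the counts were 8 and 6.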

Other observations

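The genes around the members past 2-fold were described by the 10 nearest protein-coding genes compared on the same chromosome, members left out. The number past 2-fold in the same direction as the member was from 0 to 2 of 10 around all of these members except HSPA12A, where 5 were lower, and HSPB7, where 4 were higher. Over all genes, 11.4% were at least 2-fold higher and 17.0% at least 2-fold lower. The median log2 ratio was -1.06 around HSPA12A, 0.17 around HSPB7, -0.39 around HSPA1B and -0.25 around HSPA1A. In the same stretch of chromosome 6, LSM2, a splicing factor, had a log2 ratio of -0.58, VARS1, the valine tRNA ligase, -0.13 and NEU1, the lysosomal sialidase, 0.39. VWA7 in that stretch had 0.171 TPM in si-NC against 9.31 in si-FTO, a log2 ratio of 3.14. Around HSPB1 and HSPB8 the medians were 0.43 and 0.31.

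Copies limit how well some other members can be read. Of the 76 members, 32 shared no 50-base window of their annotated transcripts with another gene, 19 shared over 10% and 6 shared over 50%. For HSPA6 the share was 45.8%, all with HSPA7, and for HSPE1 it was 48.2%, in part with the readthrough gene HSPE1-MOB4. HSPH1 and HSPA12A shared 0.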
